A study of Arachis hypogaea with 14 samples.

Results

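The super-pod line 8107 was compared with the medium-pod line 8106 in peanut (Arachis hypogaea) seeds taken 35 days after flowering (DAF). Every entry of the small RNA table was used, which is 795 different sequences, in 3 libraries of each line, out of 14 libraries in the series. The other libraries are 6 small RNA libraries of the same lines at 15 DAF and 2 degradome libraries, 1 per line, over both stages. Both lines are recombinant inbred lines of generation 8, per the design text. The libraries were made from fresh seeds. The labels do not say whether replicates are different plants, so the p-values cover the spread among these libraries only, and part of that spread may be technical. A lower level in a seed library cannot be split into fewer cells that make the small RNA and less of it per cell. The small RNA table holds no mRNA levels, and the tissue label was not checked against seed markers.

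Plant miRNAs are cut from the arms of folded precursor RNAs as a duplex. One strand is loaded into an Argonaute protein and guides it to a matching transcript, which is usually cut, and the opposite strand is usually degraded. Members of a family often differ by a base or by their ends, and those that share bases 2 to 8, the seed, are summed below as a seed group. The first letters of a name stand for the species of the matched miRNA, such as ahy for peanut, mtr for Medicago truncatula and gma for soybean. L and R give bases added to or taken from the 5′ and 3′ ends, ss gives substituted bases, MIR followed by p5 or p3 stands for a hairpin arm, and PC for a predicted candidate.

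The sequences that carry the largest line differences and their closest relatives are, 5′ to 3′, as the deposited table gives them, with the seed in capitals:
mtr-miR156e: tTGACAGAagatagagagcac
mtr-miR156b-5p: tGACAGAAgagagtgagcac
mdm-miR156a_1ss11GA: tGACAGAAgaaagtgagcac
PC-3p-646_6682: tGCTCACTctcttgctgtcacc
mtr-miR319a-3p_L+1_1ss21CT: tTTGGACTgaagggagctcct
mtr-miR319a-3p_R+1_2: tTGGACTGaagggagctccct
mtr-miR396a-5p: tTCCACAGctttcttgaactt
lja-miR396: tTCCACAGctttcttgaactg
csi-miR1515: tCATTTTTgcgtgcaatgatcc
csi-miR1515_1ss11GA: tCATTTTTgcatgcaatgatcc
ahy-miR167-5p: tGAAGCTGccagcatgatctt
ahy-miR167-3p_L-1: gATCATGTggcagtttcacc
gma-miR482b-3p: tCTTCCCTacacctcccatacc
mdm-miR482a-5p_L-1_2ss11TG20AT: gGAATGGGcggtttgggatga
mtr-miR166g-5p: gGAATGTTgtctggctcgagg
mtr-miR166e-5p_2ss10GT11CT: gGAATGTTgtttggctcgagg
mtr-miR164a: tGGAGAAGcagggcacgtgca
mtr-miR390: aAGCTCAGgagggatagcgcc
mdm-MIR171f-p3: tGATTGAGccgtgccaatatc
PC-3p-8612_823: cTATTGAGccgtgccaatatc
mtr-miR2199_1ss17AG: tGATACACtagcacgggtcac
ahy-MIR3511-p5: tCGAGCCGccagggccatgaa
ahy-MIR3516-p5: aTATTGACagaagtgttcttc

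The 3 libraries of 8106 held 998924 to 1086380 normalized reads over the entries and those of 8107 464658 to 527704, which stand for an estimated 1482576 to 3243623 and 580011 to 1178757 reads, from the steps in which the values of a library are spaced. The 2 most abundant entries, ahy-miR167-5p and gma-miR482b-3p, took 65.3 to 70.1% of the values in 8106 and 47.5 to 49.1% in 8107. The lowest listed values stood for about 6 reads in 5 of these 6 libraries, so an entry listed at 0 is not shown to be absent. Replicate 2 stood apart in both lines. Entries of 22 nucleotides took 23.0% of its values in 8106, against 35.3 and 38.3% in the other libraries of the line, and 13.8% in 8107, against 20.5 and 21.8%. Since totals differed about 2-fold between the lines, each call was also made with equal totals, equal totals without the 2 most abundant entries, quantile normalization and median centring, and a call that passed in the same direction in all 5 scalings is named as such.

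A total of 207 of 395 tested entries differed between the lines at 35 DAF, and more were higher than lower in the super-pod line. Of 795 entries, 395 reached 10 normalized reads in at least 3 of the 12 libraries and were tested with limma on log2(value + 1), with Benjamini-Hochberg adjustment over all of them. Each log2 difference is the level in 8107 minus that in 8106, with its SE after the ± sign, and each level is in the authors' normalized reads, in the order of replicates 1, 2 and 3. Of these, 207 passed at an adjusted p under 0.05 (52.4% of those tested), with 127 higher in 8107 (32.2%) and 80 lower (20.3%). Of the tested entries 35 were listed at 0 in every library of 8106 and 23 in every library of 8107. An entry that reached 10 normalized reads in 1 group alone entered the test through that group, so its direction was fixed by the filter. The levels of the 2 groups of libraries did not overlap for 208 entries (52.7%). Without replicate 2 of every group the test called 224, with 132 higher and 92 lower.

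The balance of higher and lower calls turned on the scaling. Equal totals gave 187 higher and 34 lower, and equal totals without the 2 most abundant entries gave 151 and 65. Quantile normalization gave 89 higher and 102 lower, and median centring gave 93 and 110. The median log2 difference of all tested entries was 0.03 with the authors' scaling, 1.01 with equal totals and -0.38 with quantile normalization. In all 5 scalings 118 entries passed in the same direction (29.9% of those tested), of them 85 higher (21.5%) and 33 lower (8.35%) in 8107.

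**Figure D1:**
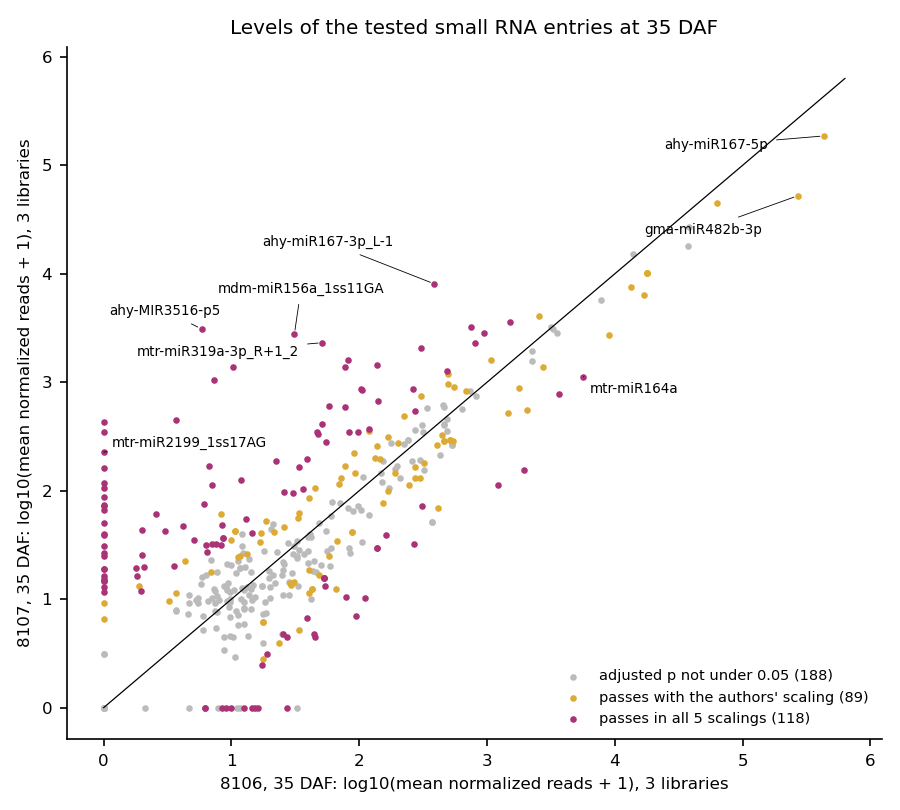
Each point is 1 of the 395 tested entries, at log10(mean normalized reads + 1) over 3 libraries of 8106 (x axis) and of 8107 (y axis), both at 35 DAF, and the line marks equal levels. The 118 entries that pass in all 5 scalings lie away from the line, and the 2 most abundant entries lie below it.

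The family that represses SPL transcription factors, miR156, changed in its make-up. Its known entries summed to 7779.6, 11456 and 6317 normalized reads in 8106 and 9212, 12807 and 8431 in 8107, groups that overlap, and the sum did not pass (0.27 ± 0.25, adjusted p = 0.354). That depended on the scaling, since the sum passed as higher in 8107 with equal totals (1.33, adjusted p = 0.000120), with equal totals without the 2 most abundant entries (0.61) and with quantile normalization (0.91), and was -0.13 with median centring. Of its 12 tested known entries 6 were higher, 1 was lower and 5 did not pass. The most abundant entry, mtr-miR156e, stood at 7149, 10512 and 5767 in 8106 and 5503, 6829.8 and 4961 in 8107 (-0.41 ± 0.22, adjusted p = 0.148), with overlapping groups, and differed by 0.65 (adjusted p = 0.0146) under equal totals.

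Against that, mdm-miR156a_1ss11GA stood at 24.2, 42.2 and 23.7 in 8106 and 2280.4, 3913 and 2115 in 8107, a log2 difference of 6.47 ± 0.32 (SE; adjusted p = 5.95e-08). Every library of 8107 was above every library of 8106, and the call passed in all 5 scalings. As a share of the family's reads it was 0.352% ± 0.0350 in 8106 and 26.8% ± 3.26 in 8107, while mtr-miR156e went from 91.6% ± 0.313 to 57.3% ± 3.47 (SD, n = 3). These shares do not depend on the scaling of a library. Both entries' odds within the family passed the test, at 6.65 ± 0.16 and -3.03 ± 0.13 on the log2 scale (limma adjusted p = 2.17e-10 and 2.34e-08).

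The single base by which mdm-miR156a_1ss11GA differs from mtr-miR156b-5p, G11A counted from the 5′ end of mtr-miR156b-5p, lies outside the seed. mtr-miR156b-5p stood at 74.8, 177 and 55.3 in 8106 and 755, 1239 and 624 in 8107 (3.20 ± 0.44, adjusted p = 0.000149). The seed group GACAGAA as a whole was higher by 4.92 ± 0.39, and the group of mtr-miR156e, with the seed TGACAGA, did not pass (-0.40 ± 0.22). A longer form, nta-miR156a_R+3_1ss11GA, had a listed 0 in every 8106 library and stood at 121, 170.1 and 191 in 8107, and the shorter gma-miR156a_L-1_1ss11GA stood at 0, 3.01 and 0 in 8106 and 33.5, 64.5 and 29.6 in 8107. The entry ppe-miR156a_R+1_1ss5AG (seed GACGGAA) differs from mtr-miR156b-5p over 20 bases by A5G, inside the seed, and by G11A and T14A, outside it. It went the other way, from 136, 222 and 122 in 8106 to 38.8, 46.1 and 28.0 in 8107 (-2.04 ± 0.28, adjusted p = 0.000126).

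In the authors' degradome table, which lists cut sites in transcripts with an alignment score (from 0 to 4, where a lower score is read as a closer match), mdm-miR156a_1ss11GA was paired with transcripts of SPL6, SPL13A, SPL3, SPL12, SPL9 and SPL18 at a best score of 3, and mtr-miR156b-5p with the first 5 of these at 1. mtr-miR156e had its best score, 0, with SPL18. The table gives no abundance and no line, so no site can be set against the level of a small RNA in either line.

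The miR172 family, which represses AP2-like factors and is known in Arabidopsis to rise as miR156 declines with age, was higher in 8107. All 6 of its tested known entries were higher, and its sum went from 967, 1175 and 952 to 3148, 3844 and 2983 (1.69 ± 0.18, adjusted p = 1.43e-06), in all 5 scalings. Its main entry mtr-miR172d-3p_R+1 stood at 880.1, 1068 and 890.5 in 8106 and 2699, 3319.5 and 2477 in 8107 (1.58 ± 0.14). The degradome table paired it with transcripts of AP2 and RAP2-7 at a best score of 1. The opposite strand, mtr-miR172c-5p, stood at 46.0, 52.9 and 39.3 and 315, 359.9 and 357 (2.88 ± 0.14). Over the list of SPL and phase change families, 12 of 18 tested known entries were higher, 1 was lower and 5 did not pass, with a median log2 difference of 1.80 beside 0.03 over all entries tested, and 10 of the 12 passed in all 5 scalings. Among all tested entries 32.2% were higher and 20.3% lower, and 21.5% were higher in all 5 scalings.

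Among the families of auxin signalling, miR390 was the one that differed most as a sum. It triggers the TAS3 small RNAs that repress auxin response factors (ARFs). mtr-miR390 stood at 66.2, 98.8 and 65.7 in 8106 and 550.2, 714 and 505 in 8107 (2.93 ± 0.19, adjusted p = 4.95e-07), and the family sum was higher by 2.95 ± 0.22, with both calls in all 5 scalings. miR393, which represses the auxin receptors TIR1 and AFB, had all 3 tested entries higher, and its sum went from 17.4, 13.4 and 6.10 to 52.2, 54.6 and 48.9 (2.10 ± 0.35), a call that quantile normalization lost at 0.43. miR160, which represses another group of ARFs, went the other way, from 2746, 3876 and 2631 to 1536, 1866 and 1385 (-0.94 ± 0.21, adjusted p = 0.00129), and turned to 0.12 with equal totals.

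The most abundant entry of these libraries, ahy-miR167-5p, of a family that represses ARF6 and ARF8 in Arabidopsis, stood at 406251, 491869 and 401955 in 8106 and 185429, 202558 and 171057 in 8107. The log2 difference of -1.21 ± 0.14 (adjusted p = 4.15e-05) depended on the scaling, with -0.16 (adjusted p = 0.224) under equal totals and 0 under quantile normalization, where it is the highest entry of every library at this stage.

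The opposite strand of the same hairpin family moved against it. ahy-miR167-3p_L-1 stood at 349.8, 480.3 and 327 in 8106 and 7987, 8979 and 7213 in 8107, and was higher by 4.40 ± 0.16 (adjusted p = 5.24e-09) in all 5 scalings. The named 5p entries took 99.9% ± 0.00840 of the family's reads with an arm in the name in 8106 and 95.8% ± 0.114 in 8107 (SD, n = 3), and the log2 ratio of 5p to 3p differed by -5.64 ± 0.07 (limma adjusted p = 9.20e-14). Other 3p forms were listed at 0 in every library of 8106. sly-miR167b-3p stood at 32.8, 57.3 and 27.2 in 8107, the hairpin arm mtr-MIR167a-p3_1ss14TC at 76.0, 66.3 and 54.5 and ppe-MIR167c-p3_1ss11TG at 49.9, 101 and 62.5. sly-miR167b-3p was also at 0 in both lines at 15 DAF, and entered the test through 8107 at 35 DAF alone. The degradome table listed no site for ahy-miR167-3p_L-1. Its pair for ahy-miR167-5p was MED12, a subunit of Mediator, at 3.5. Of other miR167 entries, mdm-miR167b was paired with CYP750A1 at 3.5 and ARF8 at 4, and mtr-miR167a_L+1R-2 with ARF6 at 4.

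A 5p variant of miR167 was also higher. mdm-miR167b, which differs from ahy-miR167-5p by T21A, its last base, stood at 489, 583 and 379.5 in 8106 and 1296, 1452 and 1033 in 8107 (1.39 ± 0.19, adjusted p = 0.000126). Over the auxin list, 10 of 19 tested known entries were higher and 4 lower, beside 32.2% and 20.3% of all tested entries. Another 5 did not pass, and the median log2 difference of the list was 1.14. In all 5 scalings 6 were higher and none of the 4 lower calls passed.

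**Figure D2:**
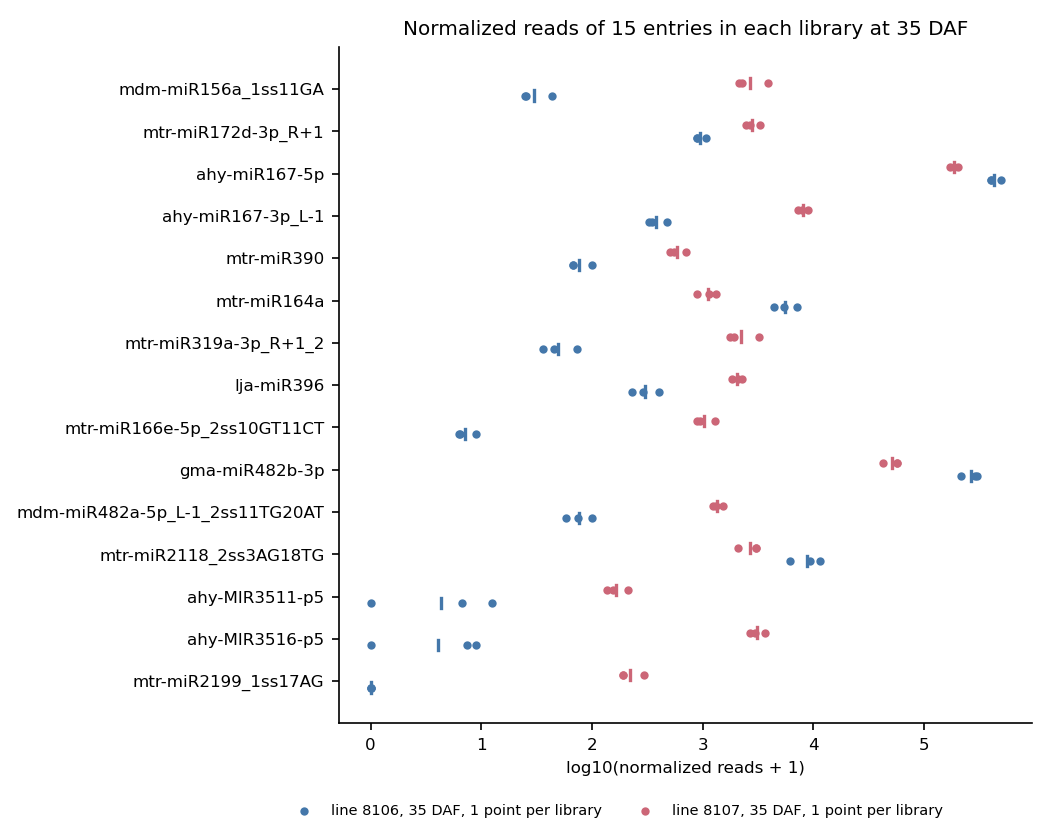
Each point is 1 library at 35 DAF, at log10(normalized reads + 1) on the x axis, for 15 entries, with a bar at the mean of each line. The lines do not overlap for any of the 15, and the direction differs between strands of miR167 and of miR482. Some of the 15 were chosen after their values were seen, and of all 395 tested entries 208 (52.7%) did not overlap.

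In the growth and organ development list, families moved in both directions. Of 57 tested known entries 21 were higher, 18 were lower and 18 did not pass, with a median log2 difference of 0.03, the same as over all entries, and 12 higher and 6 lower calls passed in all 5 scalings. The shares over all tested entries were 32.2% higher and 20.3% lower.

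The family that represses NAC transcription factors of organ boundaries, miR164, was lower in 8107. mtr-miR164a stood at 5461, 7178 and 4375 in 8106 and 1149.5, 1326 and 896 in 8107 (-2.32 ± 0.22, adjusted p = 8.25e-06). Forms with another last base or another end were lower too, such as mtr-miR164a_L+1, from 51.7, 42.9 and 63.0 to 14.2, 12.1 and 10.4 (-2.01 ± 0.21), while gma-miR164a_R+3 did not pass (-0.54 ± 0.40, adjusted p = 0.289). The sum was lower by 2.29 ± 0.22 on the log2 scale in 8107 in all 5 scalings, and 5 of 7 tested known entries were lower. The opposite strand sly-miR164b-3p was listed at 0 in 8106 and at 14.9, 16.1 and 10.4 in 8107, and entered the test through that group alone. The degradome table paired mtr-miR164a with NAC021 at a best score of 2 and NAC100 at 2.5.

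The miR319 family, which represses TCP factors of leaf and organ growth, shifted from one seed group to another. mtr-miR319a-3p_L+1_1ss21CT stood at 2919, 5296 and 2411 in 8106 and 2520.5, 3753 and 2287 in 8107, groups that overlap (-0.26 ± 0.29, adjusted p = 0.488), and passed as higher under equal totals (0.79). mtr-miR319a-3p_R+1_2, whose seed TGGACTG starts a base further on, stood at 34.7, 72.3 and 44.1 in 8106 and 1929.8, 3222 and 1784 in 8107 (5.51 ± 0.30, adjusted p = 1.41e-07). Its share of the family's reads went from 1.35% ± 0.294 to 37.2% ± 1.40, and that of mtr-miR319a-3p_L+1_1ss21CT from 92.6% ± 0.779 to 46.5% ± 1.11. With them, gma-miR319f_R+1 of the seed TGGACTG was higher by 3.03 ± 0.27, and the hairpin arm ptc-MIR319a-p5 was listed at 0 in 8106 and at 118, 160.3 and 68.9 in 8107. In the degradome table mtr-miR319a-3p_R+1_2 was paired with TCP2, TCP3 and TCP4, and mtr-miR319a-3p_L+1_1ss21CT with GAM1 and wdr82-b and no TCP symbol.

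The miR396 family, which represses growth-regulating factors (GRFs), had a similar shift at its last base. lja-miR396 stood at 286, 401 and 230.4 in 8106 and 2271, 2097 and 1838 in 8107 (2.79 ± 0.18, adjusted p = 4.11e-07), in all 5 scalings. mtr-miR396a-5p, to which lja-miR396 stands as T21G, stood at 420.5, 593 and 361 and 617, 670.2 and 485, with overlapping groups (0.38 ± 0.20, adjusted p = 0.138). The share of lja-miR396 in the family went from 23.2% ± 0.715 to 57.8% ± 1.94, and that of mtr-miR396a-5p from 34.9% ± 0.360 to 16.4% ± 1.25. The family sum was higher by 1.47 ± 0.19 (adjusted p = 1.30e-05) in all 5 scalings. lja-miR396 was paired with GRF1, GRF3, GRF4, GRF5, GRF6 and GRF12 in the degradome table, and mtr-miR396a-5p had no site there.

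miR166, which represses the HD-ZIP III factors of organ polarity, had its most abundant 3p entries lower in 8107 with the authors' scaling and a rare 5p form far higher. mtr-miR166a stood at 58724, 75072 and 53612 in 8106 and 43854, 48236 and 41817 in 8107, and its call (-0.47 ± 0.14, adjusted p = 0.0174) turned to 0.58 with equal totals and above 0 with quantile normalization (0.63, adjusted p = 0.138), and it missed the threshold without replicate 1 (-0.46, adjusted p = 0.0508) or replicate 3 (-0.43, adjusted p = 0.0593) of 8107. The second 3p entry, mtr-miR166a_1ss20CT, stood at 15499, 21131 and 13686 in 8106 and 6314, 7167 and 5649.5 in 8107 (-1.38 ± 0.16, adjusted p = 5.01e-05), a call that equal totals lost (-0.32, adjusted p = 0.0569). Its share of the family's reads went from 19.0% ± 0.756 to 10.4% ± 0.378, a difference of -1.02 ± 0.08 in log2 odds. mtr-miR166e-5p_2ss10GT11CT stood at 5.25, 8.04 and 5.42 in 8106 and 945, 1294 and 889 in 8107 (7.17 ± 0.22, adjusted p = 3.40e-09), the highest log2 difference of a known entry with reads in 8106. mtr-miR166g-5p, to which it stands as C11T, stood at 944, 1425 and 829 and 1473, 1989 and 1363, with overlapping groups. A long 3p form, mtr-miR166a_L+2, was lower, from 113, 39.5 and 176 to 8.95, 8.06 and 10.4 (-3.21 ± 0.53), a difference of -3.82 without replicate 2 of 8106. Of 19 tested known miR166 entries 4 were higher, 9 were lower and 6 did not pass, beside 32.2% higher and 20.3% lower over all tested entries. Counted with hairpin arms, 2 of 20 were higher and 1 lower in all 5 scalings. The family sum (-0.50 ± 0.15) turned to 0.55 with equal totals.

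Within miR171, which represses SCL6-type GRAS factors, the abundant entries with the seed TGAGCCG were lower with the authors' scaling and rarer entries were higher. gma-miR171n_1ss20TC stood at 1345, 1837 and 1166 in 8106 and 533, 599 and 418 in 8107 (-1.47 ± 0.20), a call that equal totals lost (-0.42, adjusted p = 0.0507). A rarer entry of the same seed, lja-miR171d-5p, went the other way, from 17.4, 24.1 and 19.7 to 46.2, 44.8 and 32.0 (0.97 ± 0.27, adjusted p = 0.0129), though not in all 5 scalings. The hairpin arm mdm-MIR171f-p3, with the seed GATTGAG, stood at 136, 154 and 124 in 8106 and 659, 778 and 574 in 8107 (2.27 ± 0.14, adjusted p = 3.64e-07), in all 5 scalings. The predicted candidate PC-3p-8612_823 differs from it by T1C and G2T and was listed at 0 in 8106 and at 71.6, 77.4 and 69.7 in 8107. The degradome table paired SCL6 with gma-miR171n_1ss20TC at a best score of 2.5, with mdm-MIR171f-p3 at 1 and with PC-3p-8612_823 at 4. The family sum of known entries was lower (-1.10 ± 0.21, adjusted p = 0.000391), but with equal totals it was -0.04, and with hairpin arms added it was -0.04 (adjusted p = 0.81).

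Of the other growth families, miR159, which represses GAMYB-like factors, did not pass as a sum (-0.24 ± 0.24, adjusted p = 0.392) but did under equal totals, where it was 0.81, and its abundant entries ahy-miR159 and mtr-miR159a_1ss21AT overlapped between the lines. A rare form, mtr-miR159b_R-1_1ss7GT, stood at 0, 4.69 and 0 in 8106 and 39.5, 100.3 and 40.9 in 8107, and was paired with GAM1 at 2. miR169, which represses NF-YA subunits, went from 93.7, 91.1 and 97.6 to 308, 264 and 337 (1.67 ± 0.19, adjusted p = 2.41e-06), a call that quantile normalization lost (0.27). The miR394 sum did not pass (0.54 ± 0.32) but did under equal totals (1.59). Within it ahy-miR394 differed by 1.31 ± 0.44 (adjusted p = 0.0289), with overlapping groups, a call lost with quantile normalization, with median centring, in a fit to 35 DAF alone and without replicate 1 or 3 of 8106 or replicate 1 or 2 of 8107 (adjusted p = 0.0964, 0.0913, 0.0571 and 0.107). Its share of the family's reads went from 44.7% ± 6.78 to 76.3% ± 4.71, and that of ahy-miR394_L+1_2, which is lower as a level (-0.79 ± 0.19) and turned to 0.26 with equal totals, from 49.5% ± 5.88 to 19.9% ± 4.29.

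In the families that act on NB-LRR resistance genes, several but not all abundant guide strands were lower in 8107 with the authors' scaling. gma-miR482b-3p, the second most abundant entry, stood at 291056, 217129 and 302462 in 8106 and 57476, 42376 and 57219 in 8107 (-2.37 ± 0.20, adjusted p = 3.09e-06), a call that held with equal totals (-1.31) and not with quantile normalization (-0.45, adjusted p = 0.291). Its share of the family's reads went from 88.4% ± 4.61 to 73.4% ± 2.81. Another abundant miR482 guide, gma-miR482a-3p_L-2_1ss14GA, did not pass. The sum of its seed group TCCCAAT stood at 39466, 15472 and 57327 in 8106 and 21053, 11344 and 21448 in 8107, groups that overlap. That sum differed by -0.92 ± 0.44 (limma adjusted p = 0.0756), and by 0.13 with equal totals. mtr-miR2118_2ss3AG18TG went from 9409, 6134 and 11554 to 3033, 2074 and 3051 (-1.71 ± 0.23), with -0.65 under equal totals, where it missed the threshold among entries (adjusted p = 0.0599) and met it among family sums (adjusted p = 0.0397), and mtr-miR1507-3p_L+1R-1 from 1757, 1740.0 and 1851 to 967, 835 and 869 (-1.003 ± 0.09), with 0.05 under equal totals.

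Their opposite strands split. mdm-miR482a-5p_L-1_2ss11TG20AT was higher, at 73.9, 98.5 and 56.9 in 8106 and 1325, 1534 and 1240.1 in 8107 (4.17 ± 0.25, adjusted p = 2.40e-07). So was mtr-miR1507-5p_R-1_2ss5TA18AG, at 43.6, 86.1 and 42.0 and 574, 750.3 and 468 (3.41 ± 0.28). The 5p arms of miR2118 hairpins were lower instead. gma-MIR2118a-p5_2ss2AG20GT went from 1247, 1041 and 1350.0 to 125, 99.4 and 113 (-3.42 ± 0.14, adjusted p = 1.30e-08), and mtr-MIR2118-p5_2ss14TC18TC differed by -3.01 ± 0.31, both in all 5 scalings. Over the list, 2 of 10 tested known entries were higher, 6 were lower and 2 did not pass, with a median log2 difference of -1.16, or -0.16 with equal totals. In all 5 scalings 2 were higher and 2 lower. For comparison, 32.2% of all tested entries were higher and 20.3% lower with the authors' scaling.

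Among the families that act on the small RNA machinery itself, 1 of 8 tested entries was higher and 1 lower, beside 32.2% and 20.3% of all tested entries. The other 6 did not pass, and none of the 8 passed in all 5 scalings. gma-miR168a, which represses AGO1, went from 12506, 18561 and 8999.9 to 7719, 8969 and 5856 (-0.79 ± 0.25, adjusted p = 0.0245), a call that turned to 0.27 with equal totals and missed the threshold with quantile normalization (0.02, adjusted p = 0.878), and it was lost on leaving out replicate 1 or 2 of 8106 or replicate 1 or 3 of 8107 (adjusted p = 0.0556, 0.0654, 0.0513 and 0.0924). The opposite arm gma-MIR168a-p3 was lower in all 5 scalings, from 3069.8, 4982 and 2818 to 737, 995 and 582 (-2.22 ± 0.26, adjusted p = 4.15e-05).

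The miR1515 family, which acts on DCL2 in soybean, changed in make-up. csi-miR1515_1ss11GA, which stands as G11A to csi-miR1515, went from 30.3% ± 2.24 of the family's reads in 8106 to 54.8% ± 1.25 in 8107, and csi-miR1515 from 64.9% ± 1.85 to 42.0% ± 1.29. The difference of the log2 odds was 1.47 ± 0.11 for the first (limma adjusted p = 1.62e-06), and it passed under every other setting tried for it. As a level, csi-miR1515_1ss11GA stood at 342, 124 and 448 in 8106 and 849, 432 and 936 in 8107, with overlapping groups. In the degradome table it was paired with DCL2B at 3.5, and csi-miR1515 was not paired with that symbol.

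In the nutrition and copper lists the differences were in rare entries. miR395, which represses ATP sulfurylase, went from 50.1, 70.0 and 50.8 to 236, 339 and 223 as a sum (2.19 ± 0.22, adjusted p = 8.50e-07) in all 5 scalings, and mtr-miR395a_L+1R-1_1ss21TC was paired with APS1. miR399, which represses the ubiquitin-conjugating enzyme PHO2, went from 23.0, 44.2 and 20.3 to 81.3, 120.0 and 62.5 (1.59 ± 0.37) and to -0.22 with quantile normalization. mtr-miR397-5p, which acts on laccases, was listed at 0 in 8106 and at 13.4, 13.4 and 14.4 in 8107. mtr-miR398b, which represses copper superoxide dismutases, went the other way, from 142, 230.1 and 127 to 89.5, 120.0 and 83.3 (-0.73 ± 0.27, adjusted p = 0.041), with 0.31 under equal totals. The call was lost without replicate 1 or 2 of 8106 (adjusted p = 0.0572 and 0.127), without replicate 1 or 3 of 8107 (0.108 and 0.122), and in a fit to 35 DAF alone, with no filter, with voom and with equal totals without the 2 most abundant entries. Of the sulfur and phosphate list 5 of 7 tested entries were higher and none lower, and of the copper and laccase list 1 of 6 was higher and 1 lower. All tested entries together had 32.2% higher and 20.3% lower. In all 5 scalings 3 entries of the first list and 1 of the second were higher, and 0 of either were lower.

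Of 27 tested entries of legume families 4 were higher and 12 lower, beside 32.2% and 20.3% of all tested entries. The other 11 did not pass, and the median log2 difference was -0.80 and became 0.25 with equal totals. In all 5 scalings 3 were higher and 1 lower. mtr-miR2199_1ss17AG had no value above 0 in 8106 and stood at 191, 295 and 191 in 8107, and entered the test through that group alone. The miR4414 sum was higher, from 9.29, 17.8 and 5.42 to 109, 181 and 81.7 (3.46 ± 0.40), in all 5 scalings. The abundant gma-miR1511_R+1_1 differed by -0.80 ± 0.26, turned to 0.25 with equal totals and missed the threshold without replicate 2 of 8106 (-0.53, adjusted p = 0.0654) or replicate 1 (-0.76, adjusted p = 0.0683) or 3 (-0.65, adjusted p = 0.0893) of 8107. Its 18-base form gma-miR1511_R-2 went from 994, 3738 and 1082 to 86.5, 278 and 103 (-3.55 ± 0.69, adjusted p = 0.00163), and both groups were highest in replicate 2, with -2.93 without replicate 2 of 8106.

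Of 6 tested known entries of families registered in Arachis, 2 were higher, 1 was lower and 3 did not pass, near the 32.2% and 20.3% over all tested entries. ahy-miR3514-3p went from 1793, 1074 and 1685 to 4172, 2605 and 3884 (1.23 ± 0.24, adjusted p = 0.00174) in all 5 scalings.

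Larger differences stood in the other arms of peanut hairpins. ahy-MIR3516-p5 stood at 6.46, 8.04 and 0 in 8106 and 2964, 3667 and 2658 in 8107 (9.56 ± 0.67, adjusted p = 7.83e-07), the highest log2 difference of all entries tested, and at 8.55 without replicate 3 of 8106, where it was listed at 0. ahy-MIR3511-p5 stood at 5.65, 11.4 and 0 and 154, 210.4 and 136 (5.24 ± 1.05, adjusted p = 0.00196), at 6.00 without replicate 2 and 4.18 without replicate 3 of 8106. Both passed in all 5 scalings, and no library of one line reached a library of the other. In the degradome table both were paired with a transcript of ROS1 at a score of 0, with sites at positions 2315 and 2031 of that transcript, and ahy-MIR3511-p5 also with DML2 at 0. ROS1 and DML2 are DNA glycosylases that remove methylated cytosines in Arabidopsis. Of 150 tested entries with a site in that table, 4 had a score of 0 with at least 1 transcript, and the other two were mtr-miR156e and mtr-miR1507-3p_R-3.

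**Figure D3:**
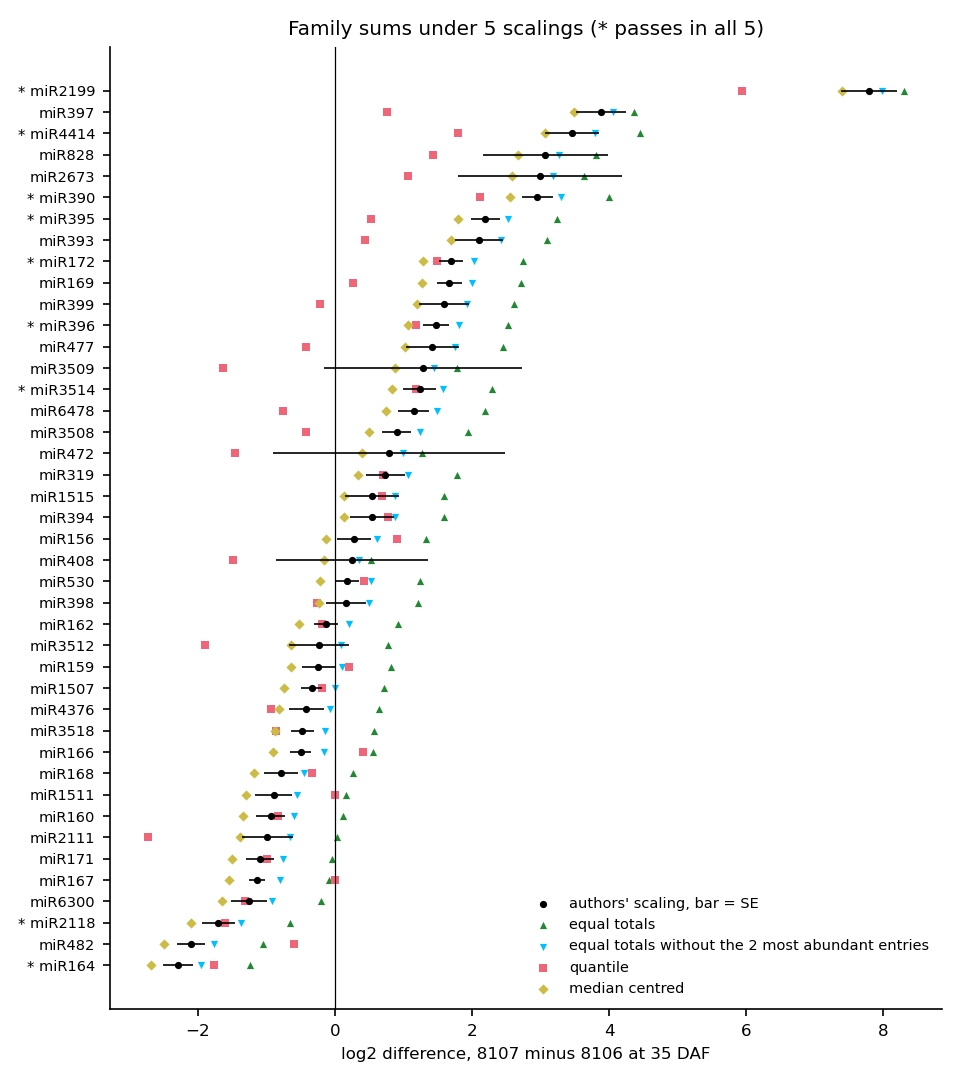
Log2 difference of each of the 42 tested family sums between 8107 and 8106 at 35 DAF (x axis), with the authors' scaling as a black point with its SE and the other scalings as coloured points. The 9 starred families pass in all 5 scalings, 7 of them higher and 2 lower in 8107, and the values of miR2199 and miR397, listed at 0 in 8106, depend on the pseudocount.

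By class, hairpin arms that are not known miRNAs were more often higher than known entries. Of 66 tested arms 32 were higher, 11 were lower and 23 did not pass, with a median log2 difference of 0.76. Of 171 known entries 61 were higher, 48 lower and 62 did not pass, with a median of 0. Of 158 predicted candidates 34 were higher, 21 lower and 103 did not pass, with a median of 0. In all 5 scalings 23 arms were higher and 5 lower, beside 38 and 15 known entries and 24 and 13 candidates. Over all tested entries 32.2% were higher and 20.3% lower, and 21.5% and 8.35% in all 5 scalings. The difference between the classes was not tested. Arms took 1.06% ± 0.0678 of the normalized reads in 8106 and 3.69% ± 0.366 in 8107, and predicted candidates 1.35% ± 0.369 and 3.91% ± 0.493 (SD, n = 3). These shares did not overlap, and 2-sided exact permutation tests gave p = 0.1 for each, which is the smallest that 3 against 3 libraries allow.

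The highest predicted candidates stood at 0 or near it in 8106. PC-3p-646_6682 stood at 4.04, 7.37 and 16.3 in 8106 and 1389, 1425 and 1292 in 8107 (7.25 ± 0.34, adjusted p = 4.05e-08). Over 21 bases it matches the miR156 hairpin arm ptc-MIR156b-p3_1ss13TC with 2 mismatches. PC-3p-4234_1541, PC-3p-23476_334, PC-5p-53453_150 and PC-5p-34874_230 were listed at 0 in all libraries of 8106, and at 479, 369 and 436, at 359, 281 and 401, at 110.3, 148 and 56.1 and at 82.0, 53.7 and 123 in 8107. PC-5p-362_10574, chosen after its values were seen, stood at 126, 149 and 133 and 1501, 1398 and 1402 (3.39 ± 0.12).

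In the other direction, PC-5p-2548_2316 went from 32.3, 65.3 and 33.2 to 5.96, 5.37 and 0 and PC-3p-41130_196 from 51.7, 20.8 and 59.6 to 10.4, 0 and 0. PC-5p-61027_131 and PC-5p-105229_70 were listed at 0 in 8107 and at 12.1, 13.4 and 17.6 and at 6.46, 22.8 and 10.8 in 8106. In all, 9 entries were at 0 in every library of 8106 and at 50 or more in every library of 8107, and 0 entries had the reverse pattern.

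Entries were also counted by strand, the rarer or the more abundant named strand of their family at 15 DAF. Those with no arm in the name, such as the abundant mtr-miR156e, were left out. For miR156 this placed mtr-miR156b-5p, which is paired with SPL transcripts, on the rarer strand. Of 28 tested entries on the rarer strand 15 were higher and 3 lower, with a median log2 difference of 1.75, and of 48 on the more abundant strand 25 were higher and 10 lower, with a median of 0.84. In all 5 scalings 14 entries of the rarer strand were higher and 0 lower, and 14 and 4 of the more abundant one. Over all tested entries 32.2% were higher and 20.3% lower, and 21.5% and 8.35% in all 5 scalings, so both strands had larger shares of higher calls. In 13 families with a tested entry on both strands, the log2 difference of the most abundant entry of the rarer strand was the larger in 7, with medians of 2.51 for the rarer and 0.76 for the more abundant strand. The difference between the strands was not tested. As ratios within a library, 9 of 14 families passed (64.3%), with the 5p to 3p ratio higher in 5 and lower in 4. The largest differences were -5.64 ± 0.07 for miR167, 5.63 ± 0.47 for miR482 and 4.38 ± 0.30 for miR1507. Where an entry without an arm in its name was placed by its seed, the ratio changed sign for miR156, from 0.52 ± 0.40 to -1.71 ± 0.32, and for miR396, from -0.58 ± 0.16 to 0.85 ± 0.10. An entry named lja-miR171d-5p has the seed TGAGCCG of gma-miR171n, which has no arm in its name, so the arms of miR171 are uncertain.

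Within families, 71 of 143 isoform shares passed (49.7%), with 44 higher and 27 lower in 8107, over 27 families. The 5 highest were mtr-miR166e-5p_2ss10GT11CT (7.70 ± 0.15 in log2 odds), nta-miR156a_R+3_1ss11GA, mdm-miR156a_1ss11GA, sly-miR167b-3p and mdm-miR482a-5p_L-1_2ss11TG20AT (6.30 ± 0.45). Of these, sly-miR167b-3p entered the test through 8107 at 35 DAF alone, so its direction was fixed by the filter. nta-miR156a_R+3_1ss11GA and sly-miR167b-3p were listed at 0 in 8106 at 35 DAF, so the size of both differences depends on the pseudocount. The 5 lowest were mtr-miR319a-3p_L+1_1ss21CT (-3.85 ± 0.10), mtr-miR1507-3p_L+1R-1, mtr-miR156e, gma-miR1511_R-2 and mtr-miR166a_L+2 (-2.71 ± 0.66). Of the family sums, 29 of 42 passed (69%), 17 higher and 12 lower, and 9 did so in all 5 scalings (21.4%). Of 99 sums over entries that share a family and a seed 72 passed (72.7%).

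**Figure D4:**
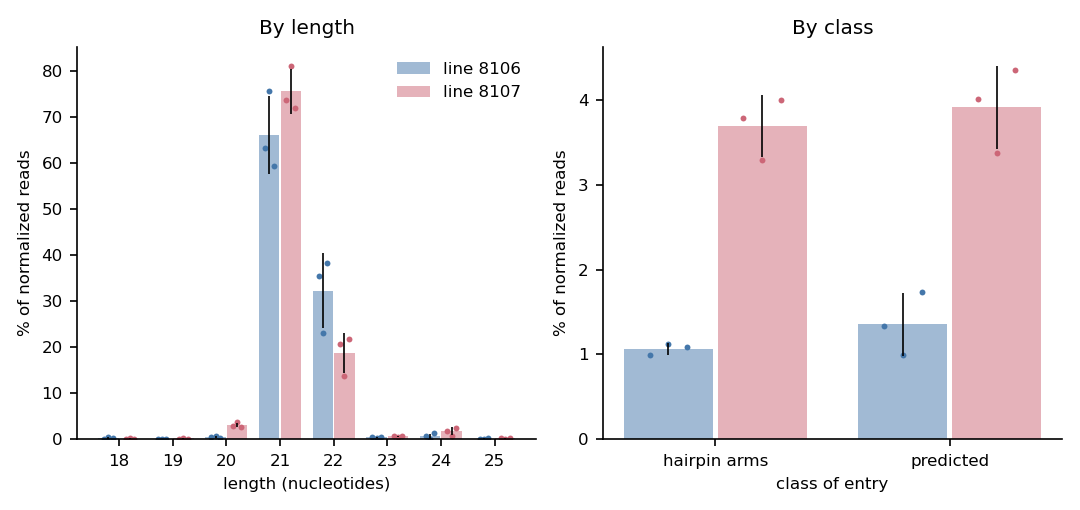
Share of the normalized reads at 35 DAF by length (left) and for 2 classes of entry (right), with bars from 0 at the mean of 3 libraries, whiskers of 1 SD and a point per library. In 8107 the share of 22 nucleotides is lower and the shares of 20 nucleotides, hairpin arms and predicted candidates are higher, with no overlap.

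By length, entries of 22 nucleotides took 32.2% ± 8.10 of the normalized reads in 8106 and 18.7% ± 4.32 in 8107, and those of 20 nucleotides 0.429% ± 0.154 and 3.08% ± 0.484, with no overlap in either (SD, n = 3, 2-sided exact permutation p = 0.1, adjusted 0.267 over 8 lengths). Shares of 21 nucleotides overlapped, at 66.0% ± 8.50 and 75.5% ± 4.88. The most abundant entry of 22 nucleotides is gma-miR482b-3p. The difference for 22 nucleotides was -13.5 percentage points, and it was -3.25 without the 2 most abundant entries and -0.59 with each listed entry counted once (2-sided exact permutation p = 0.7 for both). Per the labels' protocols, fractions of 22 to 30 nucleotides were isolated before sequencing, while most of the values stand for 21 nucleotides in all 6 libraries.

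Most line differences at 35 DAF were not those seen at 15 DAF. Of the 207 entries that passed at 35 DAF, 39 also passed in the same direction at 15 DAF, which is 18.8% of the 207 and 43.8% of the 89 that passed at 15 DAF, and 20 passed in the opposite direction. The difference of the line contrast between the stages, tested itself as an interaction, passed for 162 of 395 entries (41%), for 140 of the 207 and for 84 of the 118 that passed in all 5 scalings. It was 4.78 ± 0.22 for ahy-miR167-3p_L-1 (limma adjusted p = 1.76e-07), 4.26 ± 0.45 for mdm-miR156a_1ss11GA, 7.44 ± 0.95 for ahy-MIR3516-p5 and -2.35 ± 0.31 for mtr-miR164a (adjusted p = 0.000194). For PC-3p-4234_1541, listed at 0 in 8106 at both stages, it was 0.30 ± 0.30 (adjusted p = 0.459), and for ahy-MIR3511-p5 it was 1.82 ± 1.49 (adjusted p = 0.345). The balance of these stage differences turned on the scaling. With the authors' scaling 88 were positive and 74 negative, and with equal totals 153 and 32.

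**Figure D5:**
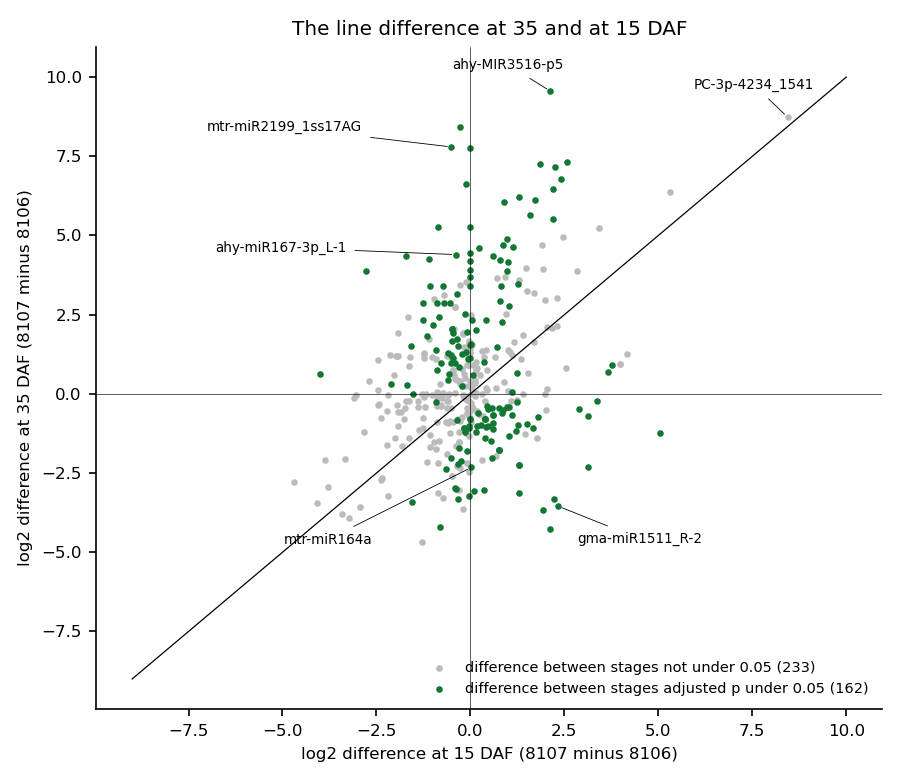
Each point is 1 of 395 tested entries, at its log2 difference between 8107 and 8106 at 15 DAF (x axis) and at 35 DAF (y axis), and the line marks equal differences. The 162 entries in green have a difference between the stages that passes, and PC-3p-4234_1541, at the upper right, lies close to the line.

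Entries that passed in all 5 scalings at 35 DAF had degradome sites about as often as all tested entries. A site was listed for 150 of 395 tested entries (38.0%), for 33 of the 85 that were higher in all 5 scalings (38.8%) and for 12 of the 33 that were lower (36.4%).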

How the data were processed

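Small RNA was sequenced from seeds with the TruSeq small RNA kit and single reads of 50 bases, per the labels' protocols. The deposited table holds the authors' normalized reads per entry, a signal value per library, per the file headers. The normalization, the annotation and the genome build are not given in the sources used here. Bowtie is named in the submitters' processing notes without version or role. The deposited degradome table gives an alignment score per site, and its values were used as deposited. A degradome library covers both stages of a line, per the labels, and the table names no line for a site.

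The table's 1082 lines hold 795 different sequences (273 known miRNAs, 140 hairpin arms and 382 predicted candidates), and values below its second header were read 1 column to the right, as that header names them. Values were whole multiples of 1 step per library, within 0.02 steps, in 98.2 to 99.4% of cases, and the step gave the estimated reads. Since the lowest values stood for several reads in most libraries, whole reads were not taken as established, and values were tested as log2(value + 1) with limma 3.58.1 in R 4.3.3. Entries that reached 10 normalized reads in 3 or more of 12 libraries entered 1 fit of 4 group means with a trended prior and no replicate block, with Benjamini-Hochberg adjustment and a threshold of 0.05. Sums over the known entries of a family or of a seed, 5p to 3p ratios and shares within a family were fitted in the same way, with sequences of identical values counted once in a sum. Such sequences (79 in 36 sets, 32 of them tested) and forms that differ by a base are uncertain as separate molecules. Shares by length and class were compared by exact permutation with scipy 1.17.1. Tables were handled with pandas 2.3.3 in Python 3.11.15 and figures drawn with matplotlib 3.10.9. The fit was tested on simulated data.

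The members and lists were chosen with earlier results of these data known. The named entries are the 10 most abundant, the 10 highest and 10 lowest known entries, the 5 highest and 5 lowest arms and candidates, the 3 most abundant of each family list, members of families that moved in both directions, and entries listed at 0 in all libraries of a line and at 50 or more in all of the other. mtr-miR390, lja-miR396, mtr-miR396a-5p, ahy-MIR3511-p5, mtr-miR172c-5p, mtr-miR156b-5p, csi-miR1515_1ss11GA, mdm-miR167b, mdm-MIR171f-p3, gma-MIR168a-p3, mtr-miR166g-5p and PC-5p-362_10574 and the counts by strand and class were chosen after their values were seen. The alternatives were other scalings, pseudocounts and filters, a fit to the 35 DAF libraries alone, a replicate block, leaving out each library, and, added after seeing the data, leaving out replicate 2 of every group and a voom fit to the estimated reads.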

Additional observations from a re-analysis of the deposited data

Results flagged for a closer look

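The line difference at 35 DAF was set against that at 15 DAF, and the difference between the stages passed for 162 of 395 entries in limma's interaction test. Each value here is the log2 difference between the lines at 35 DAF minus that at 15 DAF, so a positive value means that 8107 stood higher against 8106 at 35 DAF than at 15 DAF. All are given with the authors' scaling, and their sign and size can move with it. With that scaling 88 of the 162 were positive and 74 negative, and equal totals gave 153 and 32. Quantile normalization gave 63 and 78, and median centring gave 74 and 71.

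Among named entries it was -1.02 for ahy-miR3518, -5.88 for gma-miR1511_R-2, -1.51 for gma-miR171n, -0.93 for mtr-miR166a and -2.52 for mtr-miR398b. gma-miR171n shares its seed with gma-miR171n_1ss20TC, and gma-miR1511_R-2 was highest in replicate 2 of both lines at 35 DAF.

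Of the sums of families that act on development or auxin signalling, those of miR172, miR390, miR393, miR169 and miR396 had positive values, of 1.70, 2.14, 2.39, 2.43 and 0.77. Those of miR160, miR164, miR166, miR167 and miR171 had negative values, of -1.18, -2.30, -0.93, -1.004 and -1.63. Of the families that act on NB-LRR genes, miR482 was at -1.47 and miR2118 at -1.405.

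Of the families of mineral nutrition and copper, miR395 was at 2.31, miR398 at -2.002 and miR408, which acts on copper proteins such as plantacyanin, at -3.84, from sums of at most 6.27 normalized reads in each library at 35 DAF. miR828, which acts on MYB factors, was at 3.78. Its sum stood at 2.83, 0 and 4.74 in 8106 and 18.6, 22.4 and 27.2 in 8107 at 35 DAF. At 15 DAF its means were 1.12 in 8106 and 0 in 8107. It entered the test through 8107 at 35 DAF alone, so its direction was fixed by the filter. Of the legume and peanut families, miR1511 was at -1.40, miR1515 at 1.64, miR3508 at -2.86, miR3514 at 1.75, miR3518 at -0.91, miR4376 at -1.43 and miR4414 at 2.19. miR6300 was at -2.32 and miR6478 at 1.14. miR2199 was at 8.30, a value that depends on the pseudocount because all libraries of 8106 at 35 DAF were listed at 0.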

How the results depend on the processing

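Of the counts, that of entries moved most, from 207 to 134 with a floor of 50 and to 137 in a fit to the 35 DAF libraries alone, where fewer entries or libraries enter. Other pseudocounts gave 205 and 206, no filter 241, counting identical entries once 194 and the voom fit 182. Leaving out 1 library gave 171 to 211 entries, 24 to 29 family sums, 65 to 74 seed groups, 9 to 11 arm ratios, 67 to 72 isoform shares and 141 to 173 entries that differ between stages. Planned count models in edgeR and DESeq2 were not run, since whole reads were not established. A fit to 35 DAF alone cannot give a difference between stages. Depth limits what a listed 0 shows, since the lowest values stood for about 6 reads in most libraries.

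Replicates with the same number at 35 DAF had deviations from the group means that correlated at 0.04, 0.66 and 0.54 across entries for replicates 1, 2 and 3, and replicate 1 did not correlate best with its own number, so the numbers were not taken to pair the libraries. With a replicate block 253 entries passed (146 higher, 107 lower), 33 family sums, 80 seed groups, 12 arm ratios, 79 isoform shares and 210 entries that differ between stages.

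With equal totals the sign changed for ahy-miR3518 (0.59), ahy-miR394_L+1_1 and ahy-miR394_L+1_2 (both 0.26), ahy-miR394_L+2R-1 (0.97), gma-miR1511_R+1_1, gma-miR1511_R+1_2 and gma-miR1511_R+1_3 (all 0.25), gma-miR162a_R+1 (0.92), gma-miR167c_L+1_1ss22GT (0.83), gma-miR168a (0.27), gma-miR171n (0.14), mtr-miR1507-3p_L+1R-1 (0.051), mtr-miR156e (0.65), mtr-miR159a_1ss21AT (0.61), mtr-miR166a (0.58), mtr-miR319a-3p_L+1_1ss21CT (0.79) and mtr-miR398b (0.31). So did the family sums of miR1507 (0.71), miR1511 (0.16), miR159 (0.81), miR160 (0.12), miR162 (0.93), miR166 (0.55), miR168 (0.27), miR2111 (0.033), miR3518 (0.57) and miR4376 (0.64). With quantile normalization it changed for gma-miR168a (0.024), mtr-miR166a (0.63) and the sums of miR166 (0.40), miR3508 (-0.43), miR399 (-0.22), miR477 (-0.43) and miR6478 (-0.76). With a pseudocount of 10 it changed for the arm ratio of miR7539 (-0.69) and the shares of mtr-miR164a_1ss21AG (0.84), mtr-miR164a_1ss21AT (1.15) and mtr-miR164a_R+1 (0.61), and with arms placed by seed for the ratios of miR156 (-1.71) and miR396 (0.85). Counting each listed entry once, the line difference in share was -0.17 percentage points for 20 nucleotides, -0.11 for 24 nucleotides and -0.10 for hairpin arms. Without the 2 most abundant entries it was -2.11 for 21 nucleotides. Across the libraries left out, the difference in share ran from 2.37 to 2.82 for 20 nucleotides, 6.20 to 14.3 for 21, -18.1 to -10.5 for 22, 0.645 to 1.50 for 24, 2.48 to 2.83 for arms and 2.34 to 2.82 for predicted candidates. The cause of these changes was not tested.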
